A study of Mus musculus with 9 samples.

Results

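Cadherins and protocadherins are membrane proteins that bind their counterparts on a neighbouring cell in a calcium-dependent way. Members were all protein-coding mouse genes whose symbol begins with Cdh and a digit or with Pcdh. They numbered 73 among the 22075 genes counted here: 5 classical type I cadherins, 13 type II cadherins, 5 other numbered cadherins, 9 delta protocadherins, 3 other non-clustered protocadherins, and 7 alpha, 22 beta and 9 gamma protocadherins of the clustered arrays. The annotation holds 91 such genes, and 18 of them, all alpha or gamma protocadherins, are not analysed here. Ribosome-bound mRNA was measured by translating ribosome affinity purification (TRAP), in which ribosomes carrying a GFP-tagged L10a protein are immunoprecipitated with the mRNAs they hold. The whole astrocyte TRAP group had 3 libraries, each from the brain of 1 mouse after removal of the choroid plexus, and the endfeet TRAP group had 6 libraries, each from purified brain vessels pooled from several mice. Both groups carried the same transgene, Aldh1L1-L10aGFP, in the strain Aldh1L1 JD130 at an age of 2 months, so the tag was driven by the Aldh1l1 promoter, which is active in astrocytes, and the groups differed in the material from which ribosomes were taken. Endfeet are the terminal enlargements of astrocyte processes that cover brain vessels and stay attached to them during vessel purification. The comparison asks which cadherin and protocadherin mRNAs were relatively more or less abundant in TRAP from purified vessels than in TRAP from whole brain.

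Classical cadherins, of type I and type II, link adjacent cells at adherens junctions and hold beta-catenin, p120-catenin and alpha-catenin on their cytoplasmic tail. The delta protocadherins are single genes with their own cytoplasmic motifs, whereas the alpha, beta and gamma protocadherins sit in consecutive arrays on chromosome 18. In the alpha and gamma arrays each gene has its own promoter and its own large first exon, which is spliced to constant exons shared by the whole array, while beta genes are mostly single exons. In the brain N-cadherin (Cdh2) serves contacts between neurons, glia and vascular cells, VE-cadherin (Cdh5) joins endothelial cells, and gamma protocadherins have been implicated in contacts between astrocytes and neurons.

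The whole astrocyte TRAP libraries held 35956972 to 43487888 counts over genes, and the endfeet TRAP libraries 2318745 to 13445661. A floor of 3 counts corresponded to 0.069 to 0.0834 CPM (counts scaled to a common library size) in the former and to 0.223 to 1.29 CPM in the latter, with the highest floor in endfeet library 6. The biological coefficient of variation across genes was 0.119 between whole astrocyte libraries and 0.851 between endfeet libraries. Levels below are CPM on TMM-normalized library sizes, and log2 fold changes are endfeet over whole astrocyte. Markers of cells other than astrocytes differed between the groups. All 12 endothelial markers were higher in endfeet TRAP, with a summed level of 45.4 to 56.7 CPM in whole astrocyte and 4228 to 6134 CPM in endfeet libraries. All 11 mural cell markers (42.6 to 48.2 against 4134 to 8685 CPM) and all 9 markers of fibroblasts and meninges (146 to 222 against 2883 to 6402 CPM) were also higher. So were 6 of 9 microglia and macrophage markers (18.6 to 22.8 against 213 to 400.0 CPM) and 6 of 8 markers of choroid plexus and ependyma (89.3 to 1496 against 6759 to 88747 CPM). In the endfeet libraries the latter sum was mostly Ttr. It also differed within the whole astrocyte group, at 89.3, 1496 and 1223 CPM in libraries 1, 2 and 3. Ttr had 1050, 52219 and 51276 counts there. Of 10 astrocyte markers 1 was higher and 4 were lower (22274 to 24369 against 9578 to 29564 CPM), and of 10 neuronal markers 4 were lower (4168 to 4804 against 1154 to 2214 CPM). Of 8 oligodendrocyte markers 1 was lower (681 to 688 against 250.2 to 567 CPM), and of 7 markers of oligodendrocyte precursors 1 was higher and 2 were lower (461 to 472 against 182 to 426 CPM). No marker of these lists was at 0 in all libraries of a group. The part of such RNA in the results below was not tested, and in bulk libraries more cells of a type and more RNA per cell cannot be told apart.

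Of the 73 members, 66 had enough counts to be tested, and 15 of them (22.7%) were higher in endfeet TRAP at an adjusted p of at most 0.05 (edgeR quasi-likelihood test, Benjamini-Hochberg adjustment over the 14403 genes tested, two-sided). Over all genes tested, 20.7% were higher and 13.9% were lower by the same rule, so the share of members that were higher was close to the background. No member was lower with edgeR, also at an unadjusted p under 0.05, and DESeq2 called 0 members lower while limma voom called 1, Pcdh10. The log2 fold change was above 0 for 56 members and below 0 for 10, with a median of 1.21, against 52.1% above 0 and a median of 0.10 over all genes tested. The 56 include all 7 alpha and 9 gamma members, which mostly share counts within their array and are not separate observations. With limma voom 49 of the 66 were above 0, where the median over all genes tested was -0.29. The values of all endfeet libraries lay above those of all whole astrocyte libraries for 13 members, where 18.9% of all genes tested did so, and below them for 1 member, where 23.8% did so. Above a mean of 50 normalized counts, the level at which an mRNA was taken as present, were 34 members in the whole astrocyte group and 56 in the endfeet group, with 33 in both. These are 46.6%, 76.7% and 45.2% of the 73 members, where 49.7%, 55.2% and 46.7% of all 22075 genes were above that level. The 33 include all 9 gamma members and all alpha members but Pcdha1 and Pcdha2, which mostly share counts and are not separate observations. The study also required a minimum exon coverage, which was not applied here. A group mean can rest on few libraries: Pcdhb12 reached 61.0 in endfeet TRAP with 1, 213, 46, 9, 5 and 0 counts in libraries 1 to 6. Likewise Pcdhb5 reached 103 with 0, 16, 19, 28, 1 and 89 counts, library 6 being the shallowest. The share of members present in endfeet TRAP is therefore not read as a trait of the family. The members that were higher came from 5 families of non-clustered genes and from the beta array, and no alpha or gamma member passed the test. The call depended on which libraries entered: leaving out any of the 3 whole astrocyte libraries left 8 members higher, and leaving out any of the endfeet libraries left 11 to 18. Cdh1, Cdh3, Cdh5, Pcdh1, Pcdh18, Pcdh19 and Pcdhb18 were called in each of these 9 fits.

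**Figure D1:**
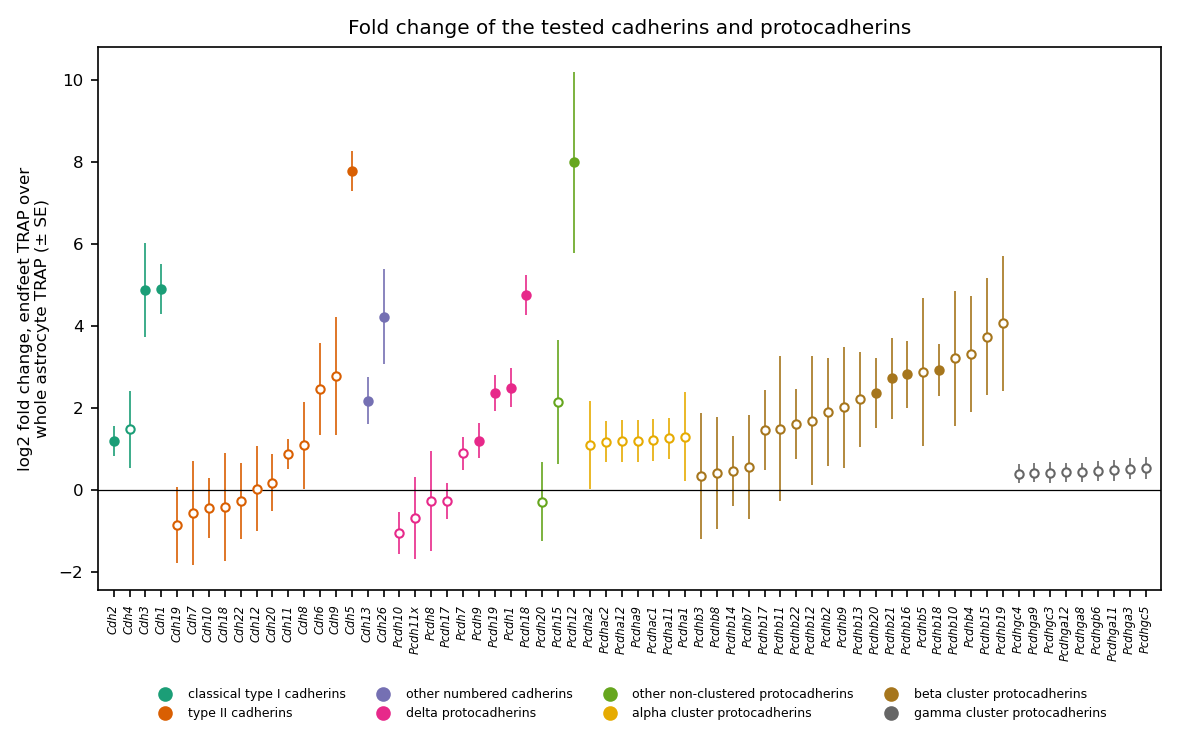
Log2 fold change (endfeet TRAP over whole astrocyte TRAP, y axis) with its standard error for each of the 66 tested members (x axis), coloured by family and ordered by value within a family. Filled points mark the 15 members with an adjusted p of at most 0.05 and open points the other 51, and with edgeR all 20 tested beta, 7 alpha and 9 gamma members lie above 0, while limma voom put 5 of the beta members below 0.

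Among classical type I cadherins, 3 of the 4 tested were higher in endfeet TRAP, and the summed level of the 5 genes was 46.7 ± 5.08 CPM (SD, n = 3) in whole astrocytes and 168 ± 14.6 CPM (SD, n = 6) in endfeet. Cdh1 (E-cadherin, the adherens junction cadherin of epithelia, chromosome 8, 106603351 to 106670246, mm10, plus strand) had 2.33, 1.85 and 1.43 CPM in the whole astrocyte libraries. In endfeet libraries it had between 19.2 and 78.3 CPM with a median of 66.3 CPM. The groups did not overlap, the smallest endfeet value being that of library 6, and the log2 fold change was 4.91 ± 0.608 (SE, edgeR adjusted p = 4.93e-05). Its neighbour Cdh3 (P-cadherin, also known from epithelia, chromosome 8, 106510891 to 106557297) had 0.243, 0.185 and 0.176 CPM in the whole astrocyte libraries and 0.914 to 12.4 CPM, median 6.16, in the endfeet libraries. Its log2 fold change was 4.89 ± 1.14 (SE, edgeR adjusted p = 0.00512). Its highest endfeet value was in library 3 and its lowest in library 6.

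Cdh2 (N-cadherin, chromosome 18, 16588877 to 16809246) was already abundant in whole astrocyte TRAP, at 41.8, 32.8 and 41.3 CPM. It ranged from 56.3 to 126 CPM in the endfeet libraries, with a median of 89.6 CPM, and all 6 exceeded the whole astrocyte libraries. The log2 fold change of 1.20 ± 0.360 (SE, edgeR adjusted p = 0.0208) was the smallest among the members called. Adjusted p-values for Cdh2 were 0.0683, 0.158 and 0.0787 when whole astrocyte libraries 1, 2 and 3 were left out in turn. Per kb of transcript, the scale on which genes can be compared, Cdh2 stood at 7.98 and 18.3 CPM per kb in whole astrocyte and endfeet TRAP, whereas Cdh1 stood at 0.422 and 12.7 CPM per kb. Cdh4 (R-cadherin) had 4.87 to 6.41 CPM in whole astrocyte and 1.31 to 33.7 CPM in endfeet libraries, and its difference was within the spread of the endfeet libraries (log2 fold change 1.48 ± 0.931, SE, edgeR adjusted p = 0.237). Cdh15 (M-cadherin of muscle) was not tested, being at 0.132 to 0.541 CPM in whole astrocyte TRAP, at 0.394 and 5.72 CPM in endfeet libraries 3 and 4, and at 0 in the other 4.

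Among type II cadherins, Cdh5 was the only member of the 12 tested that passed the test with edgeR, while DESeq2 and limma voom also called Cdh6 and Cdh11 higher. Cdh5 (VE-cadherin, the cadherin of endothelial adherens junctions, chromosome 8, 104101625 to 104144511, plus strand) had 0.73, 2.22 and 0.922 CPM in the whole astrocyte libraries. The endfeet libraries lay between 236 and 324 CPM with a median of 292 CPM and an SD of 36.9 CPM (n = 6). Its log2 fold change was 7.78 ± 0.491 (SE, edgeR adjusted p = 2.38e-07), and per kb it ranked 53rd of the 73 members in whole astrocytes and 4th in endfeet. Beside it, the summed endothelial markers had the levels given above, low in all whole astrocyte libraries and high in all endfeet libraries. The summed level of type II cadherins was 148 ± 16.99 CPM (SD, n = 3) and 482 ± 25.3 CPM (SD, n = 6) with Cdh5, and 147 ± 17.7 and 197 ± 38.6 CPM without it.

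The type II cadherins other than Cdh5 behaved differently from one another. Cdh11 (OB-cadherin of mesenchymal cells) had 48.2, 34.2 and 36.9 CPM in whole astrocyte TRAP and 52.8 to 109 CPM in endfeet TRAP. All 6 endfeet libraries were above the whole astrocyte libraries, but the test was not passed (log2 fold change 0.88 ± 0.357, SE, edgeR adjusted p = 0.0718). Cdh20 was of similar level in whole astrocytes, 34.4 to 42.6 CPM, and its endfeet libraries spread from 1.83 CPM in library 6 to 70.8 CPM in library 4. Cdh6 (K-cadherin, 1.01 to 2.14 against 0 to 15.02 CPM) and Cdh9 (2.04 to 2.84 against 0.805 to 83.7 CPM) had positive log2 fold changes of 2.47 ± 1.13 and 2.79 ± 1.44 (SE) that did not pass the test. The Cdh9 value rested on endfeet library 1, since the other 5 were at most 9.37 CPM. Cdh8 and Cdh12 had 5.44 to 8.08 CPM in whole astrocyte libraries and 0 to 32.0 CPM in endfeet libraries. The 5 others tested had negative log2 fold changes, between -0.26 for Cdh22 and -0.85 for Cdh19, with adjusted p-values (edgeR) between 0.506 and 0.848. Cdh10 (17.6 to 25.9 CPM in whole astrocytes) and Cdh19 (16.9 to 20.3 CPM) were the more abundant of these, and their endfeet libraries ranged from 2.07 to 29.4 CPM and from 0.751 to 26.0 CPM. Cdh7 and Cdh18 were at 3.21 to 5.22 CPM in whole astrocytes. Cdh7 had 14.4 CPM in endfeet library 3 and at most 2.09 CPM in the other 5, and its log2 fold change moved from -0.56 to -2.49 without library 3. Cdh18 had 10.3 CPM in endfeet library 5 and at most 3.22 CPM in the other 5, and its log2 fold change moved from -0.42 to -1.70 without library 5. Cdh24 was not tested, with at most 0.216 CPM in whole astrocyte TRAP and counts in 2 endfeet libraries only.

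Of the numbered cadherins outside the classical families, the 2 tested genes both passed the test and were higher in endfeet TRAP. Of all genes tested 20.7% were higher. Cdh13 (T-cadherin, which is anchored by a lipid, has no cytoplasmic tail and binds adiponectin, chromosome 8, 118283733 to 119324921) had 10.5, 10.7 and 12.4 CPM in whole astrocytes. In endfeet libraries it had 11.4 to 72.8 CPM with a median of 54.7 CPM, so that endfeet library 6 lay within the whole astrocyte range and the other 5 above it. The log2 fold change was 2.18 ± 0.567 (SE, edgeR adjusted p = 0.00959), and it was 1.69 with an adjusted p of 0.0623 within the series of libraries that held both groups (endfeet libraries 4, 5 and 6). Cdh26, a cadherin described in epithelia (chromosome 2, 178430531 to 178487364), had 0.893, 1.43 and 0.79 CPM against 2.41 to 57.8 CPM, median 8.54. All endfeet libraries were above the whole astrocyte ones (log2 fold change 4.23 ± 1.16, SE, edgeR adjusted p = 0.0131), with libraries 1 and 6 above the others. Its adjusted p was 0.0522 to 0.0655 when a whole astrocyte library was left out. Cdh23, a component of hair cell tip links, was not tested, with at most 0.162 CPM in whole astrocyte and 0.855 CPM in endfeet libraries. Cdh17 was not tested, with 15, 6 and 1 counts in the whole astrocyte libraries and 0 in the endfeet group. Over the summed 22 counts, the floor of 3 counts puts the endfeet group at least 3.5-fold lower, which covers counting error only. Whole astrocyte library 3, at 0.022 CPM, was itself below that floor of 0.0523 CPM. Cdh16, known from the kidney, had 0 counts in every library, which allows up to 0.0249 CPM in whole astrocyte and 0.0523 CPM in endfeet TRAP over the group.

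**Figure D2:**
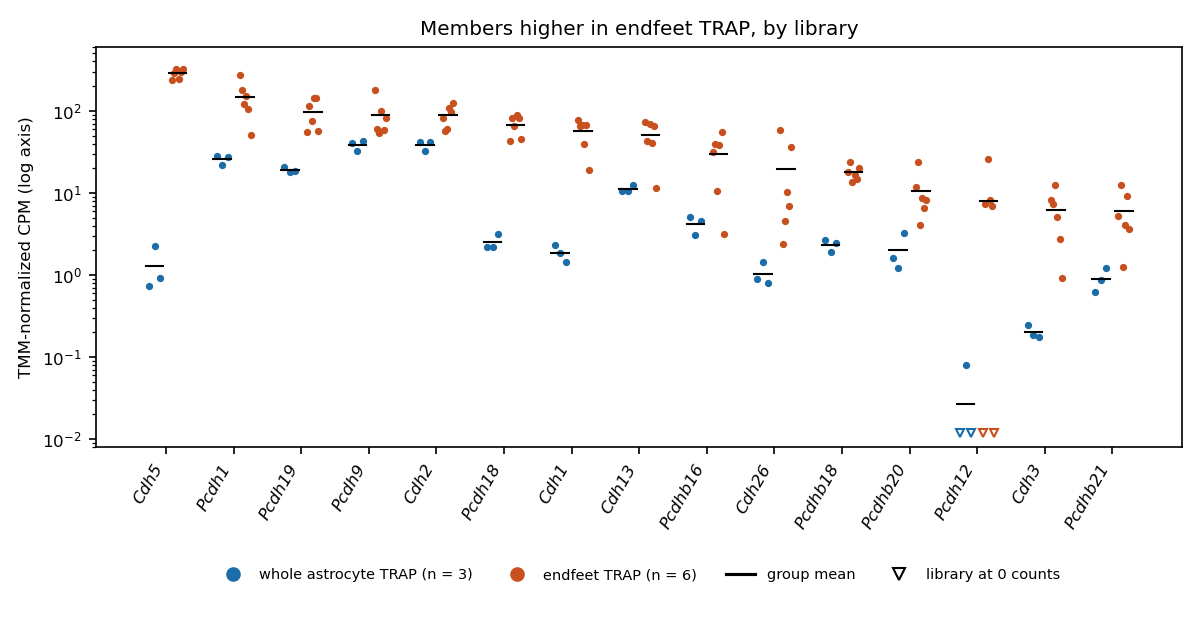
Level in each library (TMM-normalized CPM, log y axis) of the 15 members higher in endfeet TRAP (x axis), with blue points for the 3 whole astrocyte and orange points for the 6 endfeet libraries, black bars for group means and open triangles for libraries at 0 counts. Cdh5 lies at 236 to 324 CPM in endfeet libraries and at most at 2.22 CPM in whole astrocyte libraries, and the groups overlap for Cdh13, Pcdh12 and Pcdhb16 but for none of the other 12.

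The delta protocadherins, adhesion proteins of the nervous system and other tissues, were all tested, and 4 of 9 were higher in endfeet TRAP. Pcdh18 (chromosome 3, 49743296 to 49757316, minus strand) had 2.22, 2.17 and 3.12 CPM in whole astrocytes and 43.2 to 89.4 CPM, median 73.6, in endfeet libraries. This was a log2 fold change of 4.76 ± 0.493 (SE, edgeR adjusted p = 1.17e-05), with no overlap of the groups. Pcdh1 (chromosome 18, 38196694 to 38209762), known also from the airway epithelium, had 28.0, 22.0 and 27.7 CPM against 50.7 to 270.4 CPM with a median of 136 CPM. Its endfeet libraries all exceeded the whole astrocyte libraries, with library 1 highest and library 6 lowest (log2 fold change 2.5 ± 0.475, SE, edgeR adjusted p = 0.0013). Pcdh19 (chromosome X, 133582860 to 133688987), the gene of an X-linked epilepsy, had 20.6, 17.7 and 18.3 CPM against 55.2 to 145 CPM with a median of 94.3 CPM. The log2 fold change was 2.38 ± 0.437 (SE, edgeR adjusted p = 0.00102), and libraries 4 and 5 were the highest. Pcdh9 (chromosome 14, 93015512 to 93888732) had 40.5, 32.5 and 42.4 CPM against 53.3 to 179.9 CPM with a median of 71.1 CPM. Its log2 fold change of 1.21 ± 0.434 (SE) was near the threshold (edgeR adjusted p = 0.0456), and library 1 stood above the other 5, which were at most 100.3 CPM. The call was lost with the library series as a covariate (edgeR adjusted p = 0.114) and without whole astrocyte library 1, 2 or 3 (0.119, 0.228 and 0.121), and without endfeet library 4 or 5 (0.103 and 0.0612). Within the series of libraries that held both groups the call was kept (edgeR adjusted p = 0.0435).

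The other 5 delta protocadherins did not pass the test with edgeR. Pcdh7 had 29.95 to 48.8 CPM in whole astrocytes and 37.0 to 104 CPM in endfeet (log2 fold change 0.90 ± 0.398, SE, edgeR adjusted p = 0.0967) and was called by DESeq2 and limma voom, and 29.5% of its counted exons overlap a gene of the opposite strand, which unstranded reads cannot separate. Pcdh10, a protocadherin also known as OL-protocadherin, was the most abundant non-clustered member per kb in whole astrocyte TRAP, at 13.7 CPM per kb, and had 6.63 CPM per kb in endfeet TRAP. It had 122, 105 and 112 CPM in whole astrocytes and 84.5, 33.6, 72.8, 48.1, 79.8 and 8.68 CPM in endfeet libraries 1 to 6, all below the whole astrocyte values. Its log2 fold change of -1.05 ± 0.508 (SE) did not pass the test with edgeR (adjusted p = 0.129) and passed it with limma voom (adjusted p = 0.00983). Pcdh17 was at 71.6 to 91.5 CPM in whole astrocytes and at 23.3 to 122 CPM in endfeet (log2 fold change -0.26 ± 0.444, SE, edgeR adjusted p = 0.684). Pcdh11x (9.53 to 17.7 against 0.375 to 18.9 CPM) and Pcdh8 (3.36 to 4.04 against 0 to 10.1 CPM) had log2 fold changes of -0.68 ± 0.993 and -0.26 ± 1.21 (SE).

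The sequences around the start sites of 4 delta protocadherins are shown because Pcdh18, Pcdh19 and Pcdh9 were higher in endfeet TRAP and Pcdh10 lay on the opposite side. They are RefSeq promoters of build GRCm38.p6, 300 bases each with 250 before and 50 after the start, 5′ to 3′ on the strand of the gene, with the letters CCAAT (or ATTGG, the same letters on the other strand) in capitals. They lie at chr3:49757267-49757566 (Pcdh18, minus strand), chrX:133688944-133689243 (Pcdh19, minus strand), chr14:93890630-93890929 (Pcdh9, minus strand) and chr3:45378148-45378447 (Pcdh10, plus strand).
Pcdh18: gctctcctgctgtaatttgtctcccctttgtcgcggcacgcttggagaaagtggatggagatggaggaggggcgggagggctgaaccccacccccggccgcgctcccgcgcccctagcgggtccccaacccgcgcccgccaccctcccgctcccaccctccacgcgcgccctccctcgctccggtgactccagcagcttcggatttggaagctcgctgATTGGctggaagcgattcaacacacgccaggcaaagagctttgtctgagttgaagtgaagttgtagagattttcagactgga
Pcdh19: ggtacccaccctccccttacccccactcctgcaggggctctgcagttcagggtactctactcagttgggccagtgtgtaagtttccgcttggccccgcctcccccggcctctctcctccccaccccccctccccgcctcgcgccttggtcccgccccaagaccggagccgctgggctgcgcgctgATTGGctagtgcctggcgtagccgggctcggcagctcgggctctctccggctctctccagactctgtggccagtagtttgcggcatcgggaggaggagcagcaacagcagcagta
Pcdh9: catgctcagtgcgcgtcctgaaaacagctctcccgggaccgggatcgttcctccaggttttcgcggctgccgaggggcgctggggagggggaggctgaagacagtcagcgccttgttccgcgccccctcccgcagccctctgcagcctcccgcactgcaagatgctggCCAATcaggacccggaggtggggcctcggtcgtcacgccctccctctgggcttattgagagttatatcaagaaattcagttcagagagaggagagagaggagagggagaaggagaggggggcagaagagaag
Pcdh10: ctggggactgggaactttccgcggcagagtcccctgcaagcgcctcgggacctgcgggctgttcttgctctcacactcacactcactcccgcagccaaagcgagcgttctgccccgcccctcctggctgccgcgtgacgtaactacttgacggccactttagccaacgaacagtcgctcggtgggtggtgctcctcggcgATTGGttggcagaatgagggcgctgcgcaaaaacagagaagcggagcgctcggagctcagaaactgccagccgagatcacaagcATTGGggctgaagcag
The first match began 32, 65, 82 and 50 bases before the start of Pcdh18, Pcdh19, Pcdh9 and Pcdh10, and Pcdh10 had another match after the start. CCAAT on either strand was found in 37.4% of the 32851 promoters of this length in the table. Of the 22 members with an entry 15 held it, and of the 7 delta protocadherins with an entry 6 held it, the exception being Pcdh7. It was thus present in members that were higher and in members that were not, Pcdh8, Pcdh10 and Pcdh17 among them. The counted transcripts of Pcdh18, Pcdh19 and Pcdh10 start within 0, 6 and 29 bases of the RefSeq start, and that of Pcdh9 starts 1947 bases away. A match describes these letters alone and is not a binding site.

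Pcdh12, a protocadherin known from endothelial cells (chromosome 18, 38267089 to 38284357) had 0, 3 and 0 counts in the whole astrocyte libraries and 0, 63, 396, 102, 95 and 0 counts in endfeet libraries 1 to 6. The groups therefore overlapped at 0, and endfeet library 3 was the highest, at 26.0 CPM. Over the summed counts of the groups the ratio was 458 with a 95% exact interval of 156 to 2227, which covers counting error only (edgeR adjusted p = 0.0135). The call was not made without whole astrocyte library 1 or 3 (adjusted p = 0.0654 and 0.0665), and the gene did not pass the filter within endfeet libraries 4, 5 and 6. Pcdh15, of hair cells and retina, had 0.893 to 1.34 CPM in whole astrocytes and 0 to 18.3 CPM in endfeet libraries, and Pcdh20 had 5.99 to 7.44 against 0 to 11.1 CPM. Neither passed the test (log2 fold changes 2.15 ± 1.5 and -0.28 ± 0.970, SE).

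In the clustered arrays, genes share exons and counts, so that their values are not independent. In the annotation used here, each of the 7 alpha genes ends in the same 2860 bases of constant exons and each gamma gene in the same 2119 bases (2116 for Pcdhga9). In each library the counts of the 9 gamma genes lay at most 57.6% above the lowest of them, and those of 5 of the 7 alpha genes at most 39.3%, so these values are read here mostly as the level of the array. The counts of Pcdha1 and Pcdha2 were far below those of the other 5 alpha genes. The lowest gamma transcript in each library, a measure of the shared counts, had 232 ± 16.2 CPM (SD, n = 3) in whole astrocyte and 308 ± 54.8 CPM (SD, n = 6) in endfeet TRAP. All 9 gamma genes lay between 0.40 and 0.54 in log2 fold change, with adjusted p-values (edgeR) of 0.132 to 0.212, so none passed the test, while limma voom called 5 of them higher. These fold changes include the shared counts. Subtracting the lowest transcript gave values from -1.12 for Pcdhgc4 to 9.55 for Pcdhga9, and the subtraction itself shapes both ends. Pcdhga9 was itself the lowest in each whole astrocyte library, where its remainder is 0. Pcdhgc4 was itself the lowest in endfeet libraries 1, 4, 5 and 6.

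Per kb the 9 gamma genes were the highest members in both groups, with Cdh5 placed 4th among them in endfeet TRAP. Pcdhgc3 led with 63.1 CPM per kb in whole astrocyte and 85.0 CPM per kb in endfeet TRAP. It had 289.8, 271 and 326 CPM in the whole astrocyte libraries and 274 to 562 CPM with a median of 386 CPM in the endfeet libraries, so the groups overlapped (log2 fold change 0.43 ± 0.256, SE, edgeR adjusted p = 0.212). Pcdhgc5 followed, at 249, 232 and 268 CPM against 251 to 499 CPM with a median of 339 CPM (log2 fold change 0.54 ± 0.265, SE, edgeR adjusted p = 0.132). Pcdhga3 (233, 221 and 252 CPM against 231 to 466, median 324), Pcdhga11 (232, 222 and 254 CPM against 227 to 426, median 334) and Pcdhgb6 (229.8, 219.99 and 251 CPM against 222 to 392, median 324) came next and also overlapped between the groups. Pcdhga8, Pcdhga9, Pcdhga12 and Pcdhgc4 had 218 to 256 CPM in whole astrocytes and 222 to 402 CPM in endfeet.

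The counts of a transcript above the lowest of its array come from its own first exon or from reads that the others do not hold. For Pcdhgc3 they were 26.8%, 24.3% and 30.1% of the lowest transcript's counts in whole astrocyte libraries, and 12.9% to 43.5% in endfeet libraries with a median of 27.9%. For Pcdhgc5 they were 8.88%, 6.32% and 7.29% in whole astrocytes and 4.99% to 57.6% in endfeet. The other 7 gamma genes stood at most 2.46% above the lowest in any whole astrocyte library. In these libraries the gamma array was thus counted chiefly through its constant exons, with Pcdhgc3 the most distinct gene in each of them. Endfeet libraries were more uneven: Pcdhga3 was 47.0% above the lowest in library 1 and at most 4.09% in the other 5, Pcdhgb6 was 20.3% above it in library 4, and Pcdhga11 was 18.8% above it in library 6. Of the Pcdhgc3 transcript 32.3% overlaps a gene on the opposite strand, which unstranded reads cannot separate.

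**Figure D3:**
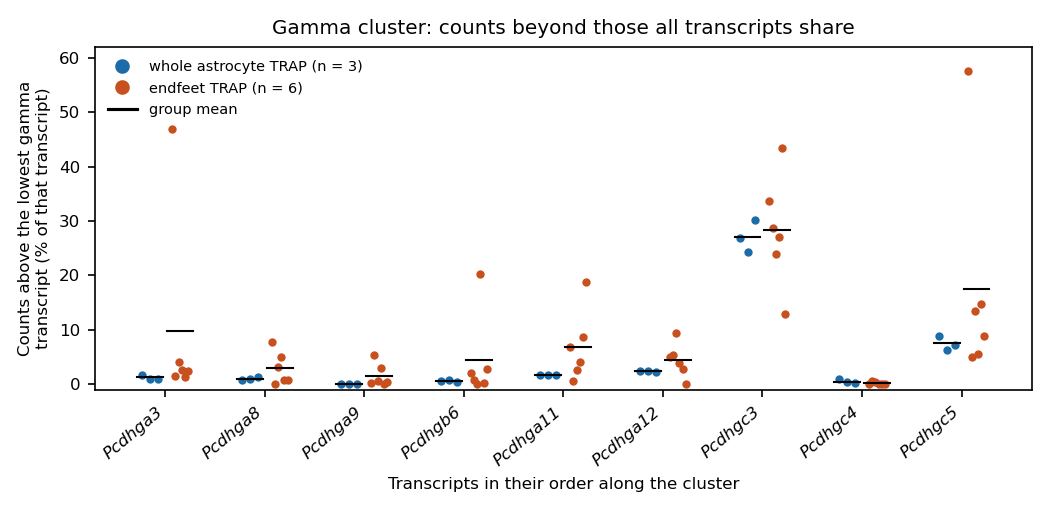
Counts of each gamma transcript above the lowest gamma transcript of the same library, as a percentage of that lowest count (y axis), for the 9 gamma genes in array order (x axis), with blue points for whole astrocyte and orange points for endfeet libraries and black bars for group means. Pcdhgc3 lies at 24.3% to 30.1% in all whole astrocyte libraries, and single endfeet libraries stand out for Pcdhga3 (47.0%) and Pcdhgc5 (57.6%).

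In the alpha array, Pcdha9, Pcdha11, Pcdha12, Pcdhac1 and Pcdhac2 had 22.3 to 34.7 CPM in whole astrocytes and 30.7 to 139.7 CPM in endfeet. Their log2 fold changes were between 1.18 and 1.26 with adjusted p-values (edgeR) of 0.0679 to 0.0906, and endfeet library 1 was the highest for each. DESeq2 and limma voom called all 5 higher. Within the whole astrocyte libraries Pcdhac2 stood above the lowest of these 5 by 9.56%, 8.09% and 9.52% of its counts, and the other 4 genes by less than 1%. In endfeet libraries the excess of Pcdhac2 ranged from 0% to 22.5%, with the highest value in library 3. Pcdha11 stood 39.3% above the lowest in endfeet library 6 (124 against 89 counts) and at most 1.53% in the other 5, and Pcdhac1 stood 10.9% above it in library 4. Of the Pcdha11 transcript 45.6% overlaps the exons of Gm10545 on the opposite strand. Pcdha1 and Pcdha2 had only 0.483 to 1.27 CPM in whole astrocytes and 0 to 4.14 CPM in endfeet, far below the other alpha genes, although the annotation used here gives them the same constant exons. How the authors' annotation ended these transcripts was not examined here.

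The beta protocadherins do not share constant exons, and the counted transcripts of the 22 genes had no exon base in common with one another. Of the Pcdhb12 transcript 63.5% overlaps the exons of Gm37446 on the opposite strand, which unstranded reads cannot separate. Their summed level was 44.3, 32.1 and 37.9 CPM in whole astrocyte libraries and 320, 195, 89.4, 162, 226 and 156 CPM in endfeet libraries 1 to 6, without overlap. Of the 22 genes 20 were tested, 4 were higher and none was lower with edgeR, and all 20 had a log2 fold change above 0 with edgeR, with a median of 2.12. The direction was not the same in each fit: limma voom put 5 of them below 0, namely Pcdhb3 (-1.69), Pcdhb11 (-1.11), Pcdhb8 (-0.47), Pcdhb12 (-0.36) and Pcdhb7 (-0.34), and with only the whole astrocyte libraries and endfeet libraries 4, 5 and 6, whose numbers fall in 1 series, Pcdhb12 was at -1.89. For Pcdhb11, 5 of the 6 endfeet libraries lay below all whole astrocyte libraries and library 4 (13.7 CPM) above them. A count was found for 21 of the 22 genes in each whole astrocyte library but for 12 to 21 in endfeet libraries, fewest in library 1.

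Pcdhb18 (chromosome 18, 37489465 to 37494505) varied least between endfeet libraries among the beta genes relative to its mean, with 2.68, 1.91 and 2.46 CPM in whole astrocytes and 13.6 to 24.0 CPM, median 17.4, in endfeet libraries. The groups were separate and the log2 fold change was 2.93 ± 0.634 (SE, edgeR adjusted p = 0.00316). Pcdhb16 (chromosome 18, 37477814 to 37483038) had 5.06, 3.05 and 4.54 CPM against 3.20 to 55.5 CPM with a median of 34.8 CPM. Its endfeet library 6 lay within the whole astrocyte range and the others above it (log2 fold change 2.83 ± 0.823, SE, edgeR adjusted p = 0.0176). Pcdhb20 had 1.62, 1.22 and 3.21 CPM against 4.01 to 23.8 CPM, median 8.42 (log2 fold change 2.38 ± 0.855, SE, edgeR adjusted p = 0.0461). Pcdhb21 had 0.622, 0.874 and 1.21 CPM against 1.25 to 12.5 CPM, median 4.64 (log2 fold change 2.72 ± 0.991, SE, edgeR adjusted p = 0.0483). Both were just inside the threshold and were called in 3 of the 9 fits that left out a library.

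Many of the other beta genes were high in a single endfeet library and low or at 0 in the rest. Pcdhb19 had 166 CPM in library 1 and at most 15.5 CPM in the other 5, and Pcdhb4 had 55.0 CPM in library 1 and at most 9.74 CPM elsewhere. Pcdhb12 reached 24.5 CPM in library 2, Pcdhb10 30.4 and Pcdhb11 13.7 CPM in library 4, Pcdhb13 43.5 CPM in library 5, and Pcdhb5 40.7 and Pcdhb9 21.0 CPM in library 6. In whole astrocyte libraries the same 8 genes, which were picked for a high endfeet library, ranged from 0.46 to 3.33 CPM. Library 1 was the highest there for Pcdhb19 (3.33, against 1.38 and 1.16 CPM). The same held, outside these 8, for Pcdhb22 (3.79, against 1.22 and 1.23 CPM). Pcdhb15 came closest to the threshold without passing (0.406 to 0.966 CPM against 0 to 21.9 CPM, log2 fold change 3.74 ± 1.43, SE, edgeR adjusted p = 0.058), and DESeq2 and limma voom called it. Pcdhb2, Pcdhb3, Pcdhb7, Pcdhb8, Pcdhb14, Pcdhb17 and Pcdhb22 had log2 fold changes from 0.36 to 1.90, and the most abundant of them in whole astrocytes, Pcdhb14, had 5.32 to 6.61 CPM against 2.74 to 19.99 CPM. Pcdhb1 had 0 counts everywhere and Pcdhb6 was not tested, with 0.45 to 0.487 CPM in whole astrocytes and 0 to 2.88 CPM in endfeet.

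**Figure D4:**
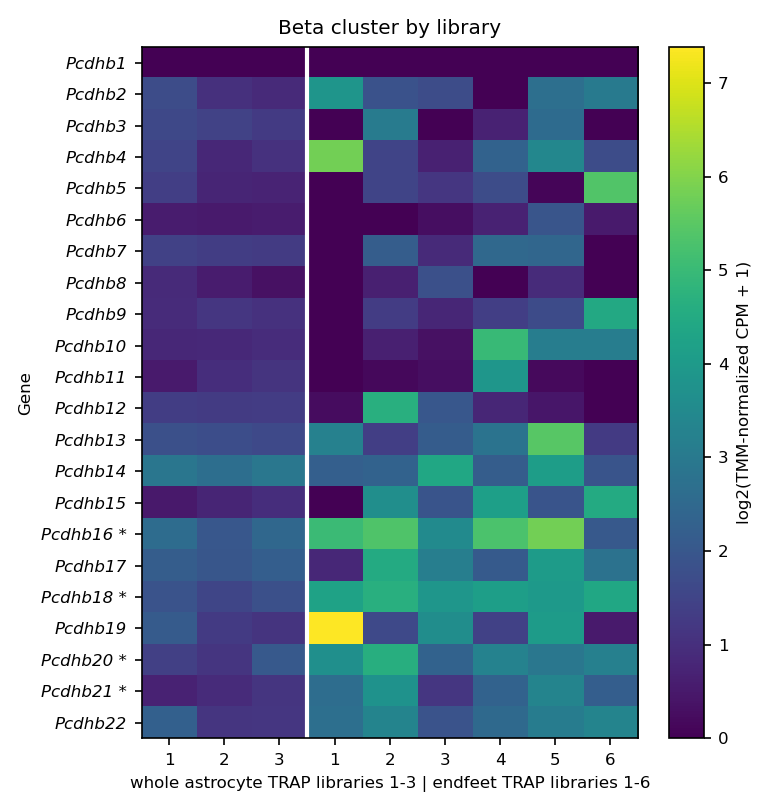
Level of the 22 beta genes (rows, in numbered order) in the 3 whole astrocyte and 6 endfeet TRAP libraries (columns, separated by a white line), as log2(TMM-normalized CPM + 1). An asterisk marks the 4 genes higher in endfeet TRAP, and single bright cells such as Pcdhb19 in endfeet library 1 (166 CPM) show genes that were high in 1 library.

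Across all families the endfeet libraries disagreed more than the whole astrocyte libraries. Among the 66 tested members, 18 had their highest endfeet value in library 1, and 7 to 12 in each of the others. Library 6, the shallowest, had 13 of them at 0 and library 1 had 11, whereas libraries 2 and 5 had 0. Library 1 was also the one with the highest summed markers of choroid plexus and ependyma, at 88747 CPM, against 39336 CPM in library 2 and 6759 to 26094 CPM in the others. This sum was mostly Ttr, with 462451 counts in library 1, where Kl had 7340 and Folr1 1467. Otx2 and Ccdc153 had 117 and 5 counts there, against 574 and 195 in library 2. Pcdh1, Pcdh9, Cdh1, Cdh13, Cdh26 and the 5 abundant alpha genes were highest in library 1. The other members called were highest in other libraries. Cdh1 had 78.3 CPM in library 1 and 68.0 CPM in library 5, and Cdh13 had 72.8 and 66.2 CPM. Library 5 had the lowest of these marker sums, at 6759 CPM. The part of choroid plexus or ependymal RNA in the levels of these members was not tested. Without endfeet library 1, 17 members were higher, and they included all 15. The other endfeet libraries also held these markers, so that fit does not remove them.

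Proteins that bind cadherins, relatives of the family, proteases that cut cadherins and factors of protocadherin promoter choice were taken as 65 further genes, of which 57 were tested. Of these 25 were higher and 2 were lower, with a median log2 fold change of 1.72, again against 20.7% and 13.9% of all genes tested. Among 20 catenins and junction linkers, 7 were higher and 1 was lower. Ctnnb1 (beta-catenin) had 551 to 636 CPM in whole astrocyte and 1180 to 1736 CPM in endfeet libraries (log2 fold change 1.36 ± 0.231, SE, edgeR adjusted p = 0.00057). Ctnnd1 (p120-catenin), which stabilizes classical cadherins at the membrane, had 168 to 175 against 298 to 501 CPM (log2 fold change 1.16 ± 0.243, SE, edgeR adjusted p = 0.00248). Ctnnd2 (delta-catenin, a p120 relative of neural tissue) moved the other way, from 1127, 935 and 970.1 CPM to 48.0 to 204 CPM (log2 fold change -2.86 ± 0.355, SE, edgeR adjusted p = 4.97e-05). Ctnna1 (alpha-catenin) had 324 to 342 against 330.1 to 572 CPM and did not pass the test (log2 fold change 0.36 ± 0.247, SE, edgeR adjusted p = 0.277). The other junction-associated genes that were higher, Tjp1 (ZO-1), Afdn (afadin), Pkp4, Lima1 and Iqgap1, differed by log2 fold changes of 1.40 to 4.37.

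Of 17 tested genes of the wider cadherin superfamily 11 were higher and none was lower with edgeR. The giant cadherins Fat1 and Fat4 and the Fat4 ligand Dchs1 had 18.6 to 20.1, 4.06 to 5.80 and 3.81 to 6.02 CPM in whole astrocytes. In endfeet libraries they had 161 to 393, 77.0 to 284 and 22.0 to 144 CPM, with log2 fold changes of 4.03 ± 0.362, 5.34 ± 0.477 and 3.52 ± 0.685 (SE). Fat2 had 1 count in the whole astrocyte group and 464 in the endfeet group, a ratio of 972 with a 95% exact interval of 174 to 38482 that covers counting error only. The desmosomal Dsg2, and Cdhr3 and Cdhr4, relatives named after the cadherin repeat, were below 0.6 CPM in each whole astrocyte library and at 2.74 to 73.6 CPM in endfeet libraries. Fat3, Celsr1, Celsr2 (planar polarity cadherins) and Clstn1 (calsyntenin) completed the list. Of the sheddases and gamma-secretase subunits, Adam10, Adam15, Adam17, Ncstn and Aph1a were higher by log2 fold changes of 1.72 to 3.26, and Capn2, a calpain, was lower (362 to 401 against 194 to 242 CPM, log2 fold change -0.82 ± 0.208, SE, edgeR adjusted p = 0.00814). Of 10 genes for chromatin looping and promoter choice in the clustered arrays, Smc1a and Nipbl were higher (log2 fold changes 2.30 ± 0.396 and 1.18 ± 0.283, SE), and Ctcf, at 111 to 123 against 97.6 to 179 CPM, was not called (edgeR adjusted p = 0.633).

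**Figure D5:**
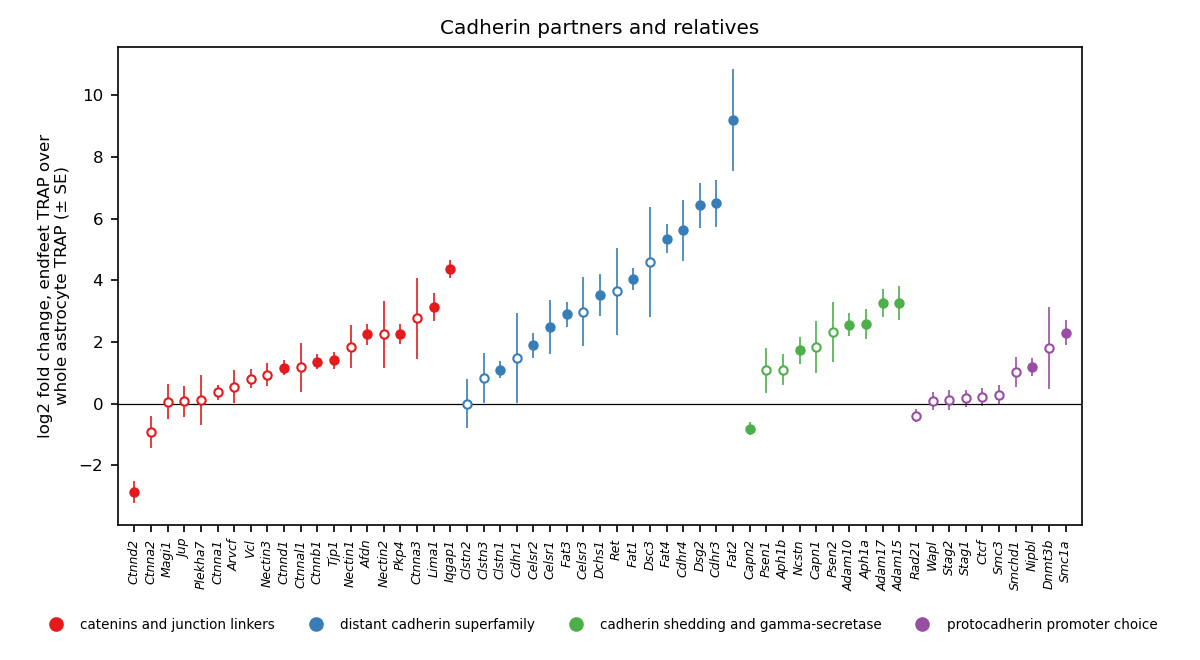
Log2 fold change (endfeet TRAP over whole astrocyte TRAP, y axis) with its standard error for the 57 tested genes of the partner lists (x axis), coloured by list and ordered by value within a list. Filled points mark genes with an adjusted p of at most 0.05, 25 of them above 0 and 2, Ctnnd2 and Capn2, below 0.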

How the data were processed

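Polysomal RNA purified by TRAP was amplified and sequenced by the authors as reads of 50 bp, and the Eoulsan pipeline aligned them to mm10 with Bowtie, removed reads that matched more than once and counted overlaps with Ensembl 75 annotation by HTSeq-count (HTSeq 0.5.3 and bcl2fastq 1.8.4 in the submitters' processing notes). What the authors deposited are raw counts for every Ensembl transcript, without normalization. A read was counted on every transcript it overlapped, the kit does not mark strand, and opposite-strand genes cannot be told apart.

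Of 75466 transcripts, 73164 were matched to GENCODE M21 (the same build), giving 22075 genes, and 2302 were left out. For each gene the transcript whose CPM summed over libraries was highest was kept. The 9 libraries entered a quasi-likelihood fit in edgeR 4.0.16 under R 4.3.3 (TMM, filterByExpr, glmQLFit, glmQLFTest), p-values were adjusted after Benjamini and Hochberg over all genes tested, and the threshold was 0.05. Standard errors were obtained from the fold change and the root of F. Presence used size factors of DESeq2 1.42.0. DESeq2's Wald test, limma voom (limma 3.58.1) and the settings named in the closing section were alternatives. Fits were tested on simulated data with the same dispersion in both groups. The measured coefficients of variation were 0.119 and 0.851, so that test does not cover the unequal spread of these data. Members, lists and tests were chosen with earlier results of these data known. Named members are those past the threshold and the 5 with the highest level per kb in each group, in full, and all others by ranges or single values. Library numbers put endfeet libraries 1, 2 and 3 in a series of their own and the rest in another. What the numbers mean is not stated, so the series is only a candidate batch. Libraries of a group are treated as replicates, and p-values measure the spread between them. Intervals and floors cover counting error only. Same-numbered libraries of the groups did not deviate together (correlations across genes of -0.036, 0.018 and 0.038).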

Additional observations from a re-analysis of the deposited data

Results flagged for a closer look

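Values of the 6 endfeet TRAP libraries were compared for 66 tested members, 27 partner genes past the threshold and 8 family sums, and the gap of the highest or lowest library to its nearest neighbour, as a share of the whole range, was above the Dixon value of 0.625 for 24 of them. A chance rate of about 1 in 20 holds for independent, normally distributed values. It is no benchmark here, because the gaps were taken on CPM without a log scale. Some members also had no counts in some libraries, and genes of an array share counts. Whether 24 is more than chance would give was not tested. Each of the 24 was a library above the others.

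Endfeet library 1 was the high one for Cdh9 (0.897), Pcdh9 (0.628), Pcdha9 (0.679), Pcdha11 (0.681), Pcdha12 (0.684), Pcdhac1 (0.683), Pcdhb4 (0.832) and Pcdhb19 (0.909), for the partners Pkp4 (0.726), Fat3 (0.713) and Dchs1 (0.70), and for the summed levels of the alpha protocadherins (0.647) and of the other numbered cadherins (0.661). The 4 alpha genes share most of their counts and are not separate observations. The same library held 88747 CPM of choroid plexus and ependyma markers, mostly Ttr, more than any other, and the part of that RNA in these values was not tested.

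Library 2 was high for Pcdhb12 (0.876), library 3 for Cdh7 (0.855), Pcdh12 (0.685) and Pcdhb8 (0.646), library 4 for Pcdhb10 (0.744) and Pcdhb11 (0.986), library 5 for Cdh18 (0.686) and Pcdhb13 (0.832), and library 6 for Pcdhb5 (0.945), Pcdhb9 (0.895) and the partner Smc1a (0.739). Of the members among these 24, only Pcdh9 and Pcdh12 had passed the test of endfeet against whole astrocyte TRAP. The 4 partner genes had passed it by selection, since only such partners were compared, and the family sums were not tested.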

How the results depend on the processing

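Members higher in endfeet TRAP numbered 15 in the reported fit and 27 with DESeq2's Wald test or 29 with limma voom, both including all 15. They numbered 15 with DESeq2 size factors (all 15 shared), 12 with no filter beyond 1 count, 12 with at least 10 counts in every library (11 shared), 12 with counts summed over transcripts, 15 with the library series as a covariate (12 shared) and 16 with only endfeet libraries 4, 5 and 6, the series that held both groups (12 shared). The other series held no whole astrocyte library. Both of these series fits thus draw the group difference from endfeet libraries 4, 5 and 6 and are not separate checks. Limma voom called 1 member, 4 partner genes and 4481 of all genes lower, against 0, 2 and 2003. A further limit of 1 on the size of the log2 fold change left 1 partner gene lower.

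Leaving out each library in turn gave 8 to 18 members higher and 0 lower, 21 to 35 partner genes higher and 1 to 2 lower, and 1757 to 3375 of all genes higher and 1171 to 2640 lower. With the replicate block, for which the numbers do not pair the libraries, 15 members were higher, 10 of them shared with the fit without it. Replicates 4, 5 and 6 have no whole astrocyte library, so that fit draws the group difference from endfeet libraries 1, 2 and 3. Members above 50 normalized counts stayed within 1.5 times of 34 and 56 under all alternatives run. After subtraction of the lowest transcript of the array, the log2 fold change turned to -0.21 for Pcdha2 and -1.12 for Pcdhgc4. With Pcdha1 and Pcdha2 left out of that step, a choice made after seeing the data, it turned to -0.70 for Pcdha12 and was again -1.12 for Pcdhgc4. None of these reversed values passed the test, and Pcdhgc4 was itself the lowest in endfeet libraries 1, 4, 5 and 6. The same subtraction gave 3.4, 3.41 and 2.52 for Pcdhga3, Pcdhgb6 and Pcdhga11, which were not called, and moved Pcdhga9 from 0.43 to 9.55 (edgeR adjusted p = 0.00693); Pcdhga9 was itself the lowest in each whole astrocyte library, where its remainder is 0. For the 31 members named in full or in the alpha and gamma arrays, 507 of 581 alternative values kept direction and call, 47 lost the call, 23 gained it and 4 reversed. The alpha and gamma members were not called and mostly share counts, so their values repeat one another and the 507 are not separate checks. Of the 15 members called, 8 kept the call in each fit without a whole astrocyte library. Over all 66 tested members and the 18 fits without that subtraction, 14 members, none of them called, turned direction in at least 1 fit, 8 of them beta genes and 6 when a library was left out; Cdh12 (0.04) turned in 9 fits and fell to -0.78. The cause was not tested.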
